A study of Caenorhabditis elegans with 4 samples.

Results

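The 7 genes described here are the NUMR genes numr-1 and numr-2, the metallothioneins mtl-1 and mtl-2, the cadmium-responsive gene cdr-1, and sysm-1 and arrd-8. They are 7 of the 46934 gene identifiers counted in an mRNA-seq comparison of whole adult Caenorhabditis elegans with and without germline ATTF-6, and all 7 were among the 16591 genes with enough counts to be tested. The first 5 were taken for their names as genes of the response to metals. The members sysm-1 and arrd-8 were chosen by their large log2 fold changes in this same comparison, and the values of the numr genes were also known when the set was drawn up. The counts and fold changes of the 7 genes are therefore a description, and no test of them is given.

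The 2 ATTF-6 depletion libraries came from animals that carried GFP::tev::aid::attf-6 on chromosome I together with the TIR1 transgene wrdSi51, and the 2 control libraries came from animals with wrdSi51 alone. TIR1 is a plant protein that marks AID-tagged proteins for destruction when auxin is present, and here the mex-5 promoter, which is active in the germ line, drove it. All animals grew at 20 °C, were moved to plates with 4 mM auxin at the L4 stage and were collected as adults. The tag on attf-6 and the loss of the protein occur in the same libraries, so their effects cannot be told apart. The labels do not say what separated the replicates of a group.

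C. elegans meets excess metal with small cysteine-rich metallothioneins that bind it, with peptides made from glutathione, and with transporters that store or export it, and much of this takes place in the intestine. The numr genes, named for a nuclear localized metal response, encode proteins with an RNA recognition motif that are strongly induced by cadmium. In this worm numr-1 is also known to be switched on when RNA processing is disturbed, for example when subunits of the Integrator complex, which cleaves nascent snRNAs and other transcripts, are lost. The gene sysm-1, also known as T24B8.5, is widely used as a reporter of the intestinal immune pathway of the p38 kinase PMK-1, and arrd-8 encodes a protein with arrestin domains.

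Counts assigned to genes summed to between 23923423 and 27269737 in the depletion libraries and to between 29753993 and 32096525 in the control libraries. The attf-6 mRNA had 2290 and 3504 counts in the depletion libraries and 5310 and 5233 in the control libraries, although auxin acts on the protein. Markers of germ cells and oocytes were lower upon depletion. The summed normalized count of 12 germ cell markers was 1307 and 1553 CPM (counts scaled to the normalized library size) in the depletion libraries, against 4625 and 4675 CPM in the control libraries, and that of 9 oocyte markers was 1390 and 1711 CPM against 8543 and 8545 CPM. The 8 intestine markers summed to 7753 and 6107 CPM in the depletion libraries and to 5040 and 4852 CPM in the control libraries. The sum was higher too for 5 hypodermis markers, with 5619 and 4979 CPM against 2847 and 2754 CPM. For 7 body wall muscle markers it was 16000 and 17780 CPM against 10990 and 10940 CPM. For 7 neuron markers it was 246.5 and 243.9 CPM against 183.7 and 185.1 CPM. The groups overlapped for 5 pharynx markers, with 856.7 and 1168 CPM against 873.8 and 865.4 CPM. A large part of the intestine sum was asp-1 (5520 and 4170 CPM upon depletion), and of the muscle sum unc-54 (8130 and 9350 CPM). In whole animals, fewer cells of a type and less RNA per cell cannot be told apart. The part of these shifts in the values below was not tested, except where a scaling to somatic markers is given.

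The 7 genes were a small fraction of the RNA. Together they had 1766 and 1618 counts in the depletion libraries and 572 and 642 counts in the control libraries, which is 0.00738% and 0.00593% against 0.00178% and 0.00216% of the counts on genes. A single gene, mtl-2, held 47.6% and 44.4% of the members' counts in the depletion libraries and 87.8% and 86.9% in the control libraries. Without mtl-2, the members had 925 and 899 counts upon depletion and only 70 and 84 counts in the control. In 6 of the 7 genes both depletion libraries lay above both control libraries, and cdr-1 was the exception. The share of all tested genes with groups apart in this way was not counted. Of all 16591 tested genes 30.9% were called higher upon depletion, which is a different measure. The members were chosen partly on this comparison, and nothing is read from their count.

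**Figure D1:**
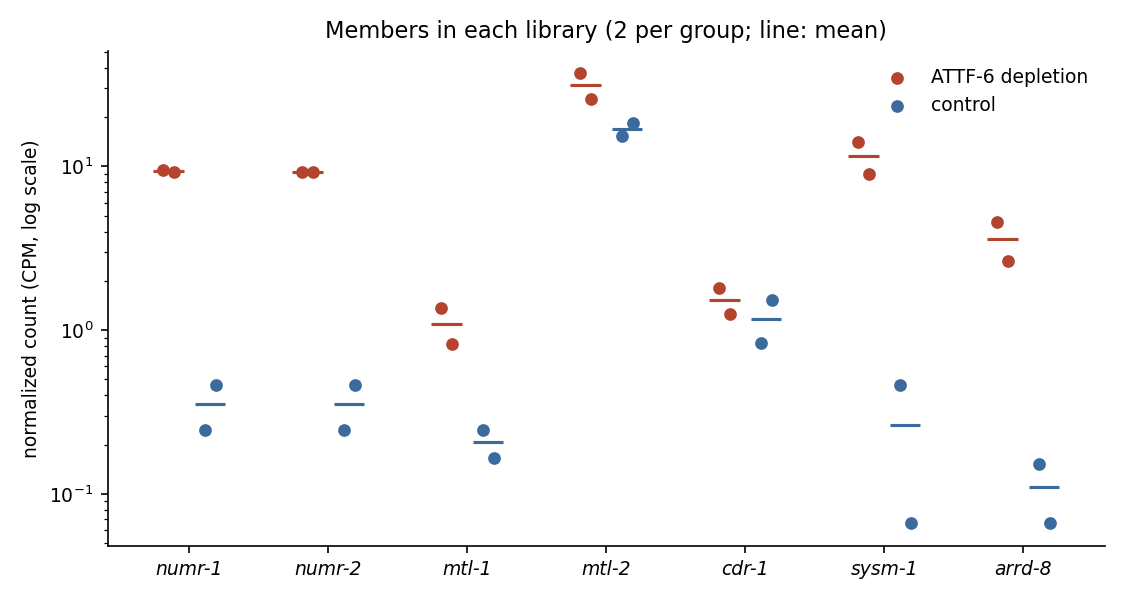
Normalized count (CPM, log axis) of each of the 7 genes in the 2 ATTF-6 depletion libraries and the 2 control libraries, with a line at each mean. The numr genes lie between 9.23 and 9.53 CPM upon depletion and between 0.246 and 0.463 CPM in the control, whereas the groups overlap for cdr-1.

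The numr genes stand head to head on chromosome III in WBcel235. The gene numr-1 (WBGene00017270, F08F8.5) spans 7362619 to 7363464 on the minus strand, and numr-2 (WBGene00017267, F08F8.1) spans 7364385 to 7365230 on the plus strand. Each is 846 bases long, and 920 bases lie between them. They were the only members with fractional counts, because a read that aligned to both was divided between them. In the control the division left identical values, 7.5 and 14.5 counts for each gene, and the genes cannot be told apart there.

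Upon depletion numr-1 had 216.5 and 259 counts and numr-2 had 209.5 and 257 counts. The sum of both genes, which is the same however the reads were split, was 426 and 516 counts in the depletion libraries and 15 and 29 counts in the control libraries. In normalized units the sum was 18.8 and 18.5 CPM in the depletion libraries, so these replicates were nearly equal, and 0.46 and 0.96 CPM in the control libraries, where they differed more. The log2 fold change of the sum was 4.72 (standard error 0.29), a fold of 26.4 with a 95% interval of 19.7 to 36.9 for counting error alone. Taken singly, numr-1 and numr-2 ranked 19 and 20 among the tested genes by log2 fold change.

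The gene sysm-1 (WBGene00011979, chromosome II: 9082626 to 9083193, minus strand) had 323 and 251 counts in the depletion libraries and 15 and 2 counts in the control libraries. The control libraries thus differed 6.96-fold in CPM, more than the replicates of any other member. The normalized counts were 14.2 and 9.02 CPM in the depletion libraries and 0.46 and 0.0662 CPM in the control libraries. The log2 fold change of sysm-1 was 5.40 (standard error 0.50), which ranked 7 among all tested genes. It was 7.34 without control replicate 1 and 4.62 without control replicate 2. The control numbers follow the sample labels, and they may be exchanged relative to the study's own listing of these counts. The 6 genes ranked above it had at most 29 counts in any library, fewer than sysm-1 had upon depletion by a wide margin.

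The gene arrd-8 (WBGene00012467, Y17G7B.14, chromosome II: 12065085 to 12067638, plus strand) had 104 and 74 counts upon depletion and 5 and 2 counts in the control. This is 4.59 and 2.66 CPM in the depletion libraries, against 0.153 and 0.0662 CPM in the control libraries. The log2 fold change was 4.96 (standard error 0.53) at rank 15, and because the control rests on 7 counts in all, the counting interval of the fold of 31.2 reaches up to 79.7. It was 5.65 without control replicate 1 and 4.49 without control replicate 2.

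The metallothioneins differed from each other in level and in change. The gene mtl-1 (WBGene00003473, chromosome V: 6691371 to 6691863, minus strand), whose product is made in the pharynx without added metal and in the intestine after metal exposure, had 31 and 23 counts in the depletion libraries and 8 and 5 counts in the control libraries. The normalized counts of mtl-1 were 1.37 and 0.826 CPM upon depletion and 0.246 and 0.166 CPM in the control. Its log2 fold change was 2.37 (standard error 0.56), a fold of 5.18 with a counting interval of 2.78 to 10.3.

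The gene mtl-2 (WBGene00003474, chromosome V: 14018270 to 14018673, minus strand), an intestinal metallothionein induced by metal, was the most abundant member in every library, with 841 and 719 counts upon depletion and 502 and 558 counts in the control. In normalized units it had 37.1 and 25.8 CPM in the depletion libraries, against 15.4 and 18.5 CPM in the control libraries. The groups did not overlap, but the difference between the depletion replicates was larger than the gap between the nearest libraries of the groups. The log2 fold change of mtl-2 was 0.89 (standard error 0.18), and 78.3% of the tested genes had a smaller one. Relative to somatic markers it was 0.42.

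The gene cdr-1 (WBGene00000412, chromosome V: 15921309 to 15922820, plus strand) encodes a membrane protein of intestinal lysosomes and is induced by cadmium. It had 41 and 35 counts in the depletion libraries and 27 and 46 counts in the control libraries, or 1.81 and 1.26 CPM against 0.829 and 1.52 CPM. The groups overlapped. The log2 fold change of cdr-1 was 0.38 (standard error 0.42), with a counting interval of the fold of 0.926 to 1.81, and its sign turned to -0.10 with scaling to somatic markers and to -0.02 without control replicate 1. A change of cdr-1 was thus not detectable beyond the spread between these libraries.

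**Figure D2:**
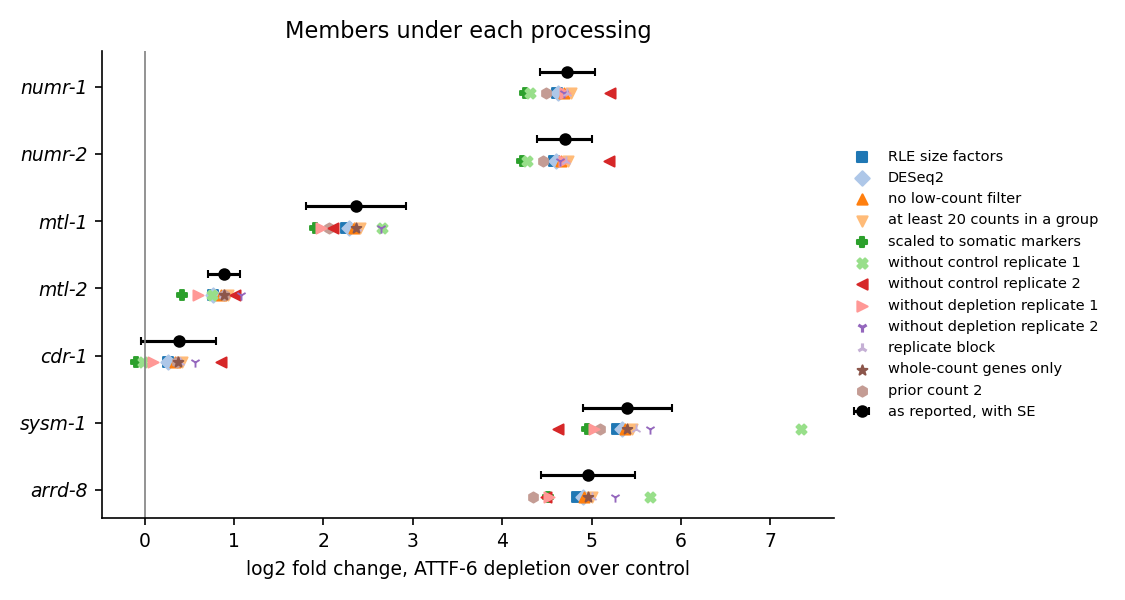
Log2 fold change of each member, ATTF-6 depletion over control, as reported (black, with standard error) and under each alternative processing (coloured symbols). The values of sysm-1 run from 4.62 to 7.34 and those of mtl-2 from 0.42 to 1.08, while those of cdr-1 fall on both sides of 0, from -0.10 to 0.85.

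Levels of different genes were compared as CPM per kilobase of exon. In the depletion libraries the means on this scale were 90.7 for mtl-2, 24.7 for sysm-1, 11.1 for numr-1, 10.9 for numr-2, 3.11 for arrd-8, 2.94 for mtl-1 and 1.62 for cdr-1. Neighbours in this order did not overlap, except arrd-8 with mtl-1, but all values of numr-1 and numr-2 lay between 10.9 and 11.3 and rest in part on divided reads. In the control libraries the means were 48.8 for mtl-2, 1.24 for cdr-1, 0.56 for sysm-1, 0.551 for mtl-1, 0.419 for each numr gene and 0.0943 for arrd-8. There the libraries of cdr-1 and sysm-1, those of sysm-1 and mtl-1, and those of mtl-1 and the numr genes overlapped. Thus mtl-2 led in both groups, and cdr-1 was next in the control but last upon depletion.

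The depletion replicates also differed among themselves. All 7 members had a higher normalized count in depletion replicate 1 than in depletion replicate 2, compared with 50.6% of all tested genes, but the numr genes differed by little. The other 5 members differed more, as the values of sysm-1, arrd-8, mtl-1, mtl-2 and cdr-1 above show. The summed count of the intestine markers was 1.27 times as high in depletion replicate 1 as in depletion replicate 2, and that of the germ cell markers was 0.842 times as high. The other somatic markers went both ways, at 1.13 times for the hypodermis, 1.01 times for neurons, 0.90 times for body wall muscle and 0.733 times for the pharynx. The part of these markers in the spread of the members was not tested.

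Other genes of metal handling show whether a wider set moved. Over the tested genes, 30.9% were higher and 32.1% were lower upon depletion by edgeR's quasi-likelihood test (adjusted p under 0.05, Benjamini-Hochberg), and the median log2 fold change was 0.16. Among 42 other tested genes of metal transport, chelation and sensing, 21 were higher, 13 were lower and 8 were not called, with a median of 0.43. Relative to somatic markers, 9 were higher and 14 were lower, beside 12.4% and 40.4% of all genes. That scaling shifts the median log2 fold change by -0.48.

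The 19 zinc genes were split evenly, with 8 higher and 8 lower, beside 30.9% and 32.1% of all genes. Relative to somatic markers 2 were higher and 8 were lower, beside 12.4% and 40.4% of all genes. The largest rises were those of ttm-1, a zinc exporter of the intestine, which had 54.3 and 50.5 CPM upon depletion and 20.1 and 19.6 CPM in the control (log2 fold change 1.40), and of zipt-17 (1.28). The largest falls were those of zipt-2.3 (-2.13), with 0.529 and 0.682 CPM in the depletion libraries against 3.01 and 2.35 CPM in the control libraries, and of zipt-2.4 (-1.93). Genes of the ZIP family, which bring zinc into the cytoplasm, made up all 8 of the falls and 5 of the rises. The nuclear receptor gene hizr-1, whose product senses high zinc and activates mtl-1 and other genes, had 5.47 and 4.53 CPM upon depletion and 3.44 and 1.66 CPM in the control, a log2 fold change of 0.96 (adjusted p = 0.032) that was 0.49 relative to somatic markers (adjusted p = 0.26).

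All 4 tested relatives of cdr-1 were higher upon depletion, beside 30.9% of all genes. With DESeq2, by which 23.2% of all genes were higher and 33% lower, 2 were called. Relative to somatic markers, with 12.4% of all genes higher, 1 was called and cdr-6 was at -0.03. The 4 relatives were cdr-4 (1.04), cdr-7 (0.93), cdr-2 (0.48) and cdr-6 (0.44), on the log2 scale. Their summed count was 130.5 and 108.2 CPM in the depletion libraries and 73.28 and 74.65 CPM in the control libraries. Among 7 genes of chelation and export, 3 were higher and 3 were lower, beside 30.9% and 32.1% of all genes. The higher genes included pgp-3 (1.47), a P-glycoprotein linked to resistance to toxic compounds. They also included pcs-1 (0.80), which encodes the phytochelatin synthase that protects worms from cadmium. The 3 that were lower included hmt-1 (-0.64), an ABC transporter that is also required for cadmium tolerance, and gss-1 (-0.47), a glutathione synthetase. The genes pcs-1 and hmt-1, both of the phytochelatin system, thus moved in opposite directions. Relative to somatic markers, hmt-1 and gss-1 remained below 0 and pcs-1 was not called (0.32, adjusted p = 0.18).

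Among 12 genes of copper, iron, manganese and heme, 6 were higher and 2 were lower, beside 30.9% and 32.1% of all genes. Relative to somatic markers 5 were higher and 2 were lower, with a median of 0.01, beside 12.4% and 40.4% of all genes. The ferritin gene ftn-1, which encodes an iron storage protein of the intestine, had 13.5 and 5.24 CPM upon depletion and 1.32 and 0.728 CPM in the control. It rose by 3.17 on the log2 scale (adjusted p = 0.00042), the largest rise in the metal handling list, with a 2.58-fold gap between the depletion replicates. The copper transporter gene chca-1 was also higher (1.22), and cutc-1 (-1.41) and the copper pump gene cua-1 (-0.64) were lower.

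The arrestin domain family of arrd-8 was mixed. Of 22 other tested members, 7 were higher, 4 were lower and 11 were not called, with a median log2 fold change of 0.46. The share of higher genes was thus close to the 30.9% over all genes, while 32.1% of all genes were lower. The gene arrd-24 had 7.83 and 3.77 CPM in the depletion libraries and 0.445 and 0.430 CPM in the control libraries, a log2 fold change of 3.73 (adjusted p = 9.2e-05). In the other direction, arrd-1 had 0.176 and 0.0359 CPM against 6.32 and 5.86 CPM (-5.87), and arrd-2 also fell (-3.35). The gene arrd-7, a neighbour of arrd-8 on the chromosome, rose by 1.09. With scaling to somatic markers 3 were higher and 6 were lower, beside 12.4% and 40.4% of all genes.

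All 11 tested Integrator subunit genes were lower upon depletion, beside the 32.1% of all genes that were lower, with a median log2 fold change of -1.03 and a range of -1.51 to -0.44, and all 11 were also lower with DESeq2 and relative to somatic markers. The subunit gene ints-7 had 29.9 and 38.4 CPM in the depletion libraries and 96.1 and 98.9 CPM in the control libraries (-1.51), and ints-2 had 30.3 and 37.4 CPM against 80.9 and 90.0 CPM (-1.33). All 12 germ cell markers were lower as well, from -2.65 to -0.54. The part of the germ line in the Integrator values, and any link of these values to the numr genes, was not tested.

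Most genes of the p38 pathway itself were not called. Of its 6 components, tir-1 (log2 fold change 0.32, adjusted p = 0.037) and vhp-1 (1.03) were higher, a share close to the 30.9% over all genes. The gene vhp-1 encodes a phosphatase that opposes p38 and JNK signalling and is known from work on heavy metal resistance. It had 131 and 144 CPM in the depletion libraries and 66.9 and 68.3 CPM in the control libraries. The groups overlapped for the kinase gene pmk-1, with a log2 fold change of -0.10 (adjusted p = 0.61). The call of tir-1 was lost with DESeq2 (adjusted p = 0.29), which left 1 component higher, beside 23.2% of all genes. Relative to somatic markers 1 component was higher and 4 were lower, beside 12.4% and 40.4% of all genes. Their median log2 fold change was -0.50 there, and the scaling itself shifts the median of all genes by -0.48.

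Other genes used as readouts of this pathway were higher. Of 9 tested, 8 were higher beside the 30.9% of all genes that were higher, with a median log2 fold change of 1.00, and clec-60 was not called. The gene K08D8.5 had 39.0 and 26.6 CPM in the depletion libraries and 7.37 and 7.75 CPM in the control libraries (2.11), and the lysozyme gene lys-2 had 284 and 209 CPM against 57.1 and 59.0 CPM (2.09). The change of sysm-1 was larger than that of any of the 9. As sysm-1 was chosen for its large change, nothing is read from this. Of the 8 intestine markers, 7 were higher too, with a median of 0.50. Relative to somatic markers, 4 of the 9 readouts were called higher, with a median of 0.53, beside 12.4% of all genes higher. The intestine markers had a median of 0.03 there. They are among the markers that set this scaling, so a value near 0 follows from it. As with sysm-1, all 9 had a higher normalized count in depletion replicate 1 than in depletion replicate 2. So did 7 of the 8 intestine markers and 50.6% of all tested genes. The part of the intestine in these values was not tested.

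Reporters of other stresses differed by kind. Of 16 tested, 12 were higher and 3 were lower, beside 30.9% and 32.1% of all genes, with a median log2 fold change of 1.38. Relative to somatic markers 9 were higher and 4 were lower, with a median of 0.90, beside 12.4% and 40.4% of all genes. The 6 small heat shock genes of the hsp-16 group were all higher, by 1.84 to 3.08. They include near-identical copies, such as hsp-16.1 and hsp-16.11, whose shared reads were divided, so these rises are not independent. The gene hsp-16.41 had 13.1 and 11.9 CPM in the depletion libraries and 1.23 and 1.72 CPM in the control libraries, and hsp-16.2 (2.96) was close to it. The oxidative stress reporter gst-4 was also higher, with 48.5 and 37.1 CPM upon depletion and 15.9 and 18.8 CPM in the control. The superoxide dismutase gene sod-3, another oxidative stress gene, was not called (-0.35, adjusted p = 0.13) and was lower relative to somatic markers (-0.83, adjusted p = 0.0071). The mitochondrial chaperone genes hsp-6 (-0.84) and hsp-60 (-0.81), which report mitochondrial stress, were lower, and so was hsp-4 (-0.36), which reports stress of the endoplasmic reticulum.

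**Figure D3:**
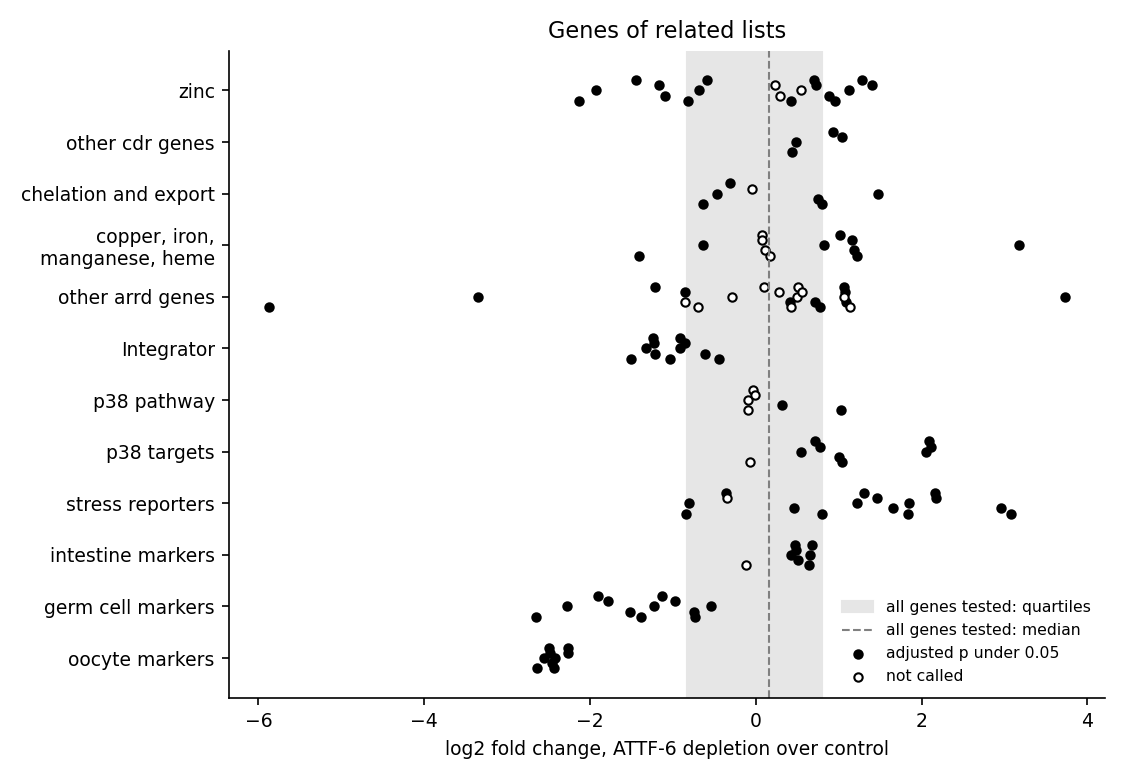
Log2 fold change, ATTF-6 depletion over control, of each tested gene in the related lists and in 3 marker lists, with filled points for an adjusted p under 0.05 and open points for genes not called. The grey band holds the middle quartiles of all 16591 tested genes, from -0.83 to 0.80, and the 11 Integrator genes all lie below 0 while 8 of the 9 p38 targets lie above 0.

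The genes beside the members were chosen by position alone. The 3 nearest protein-coding genes on each side of each of the 6 loci gave 26 tested genes, of which 3 were higher and 10 were lower, with a median log2 fold change of -0.17, beside 30.9% of all genes higher and 32.1% lower. On the left of numr-1, hmgr-1 lies 489 bases away and was lower (-0.50), as were eco-1 (-1.60) and F08F8.10 (-1.24). The genes on the right of numr-2 had too few counts to be tested. Beside mtl-1, egl-46 (-2.04) and era-1 (-2.87) were lower, and beside cdr-1, pzf-1 (-1.25) was lower.

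Beside sysm-1, T24B8.4 (0.65) and C07H4.1 (1.71) were higher and T24B8.3 (-1.42), hlh-3 (-2.61) and clh-5 were lower. Beside arrd-8, arrd-7 was higher and ippk-1 (-0.87) was lower. The members sysm-1 and arrd-8 are on the same chromosome but are not neighbours. Relative to somatic markers 2 neighbours were higher and 15 were lower, beside 12.4% and 40.4% of all genes.

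**Figure D4:**
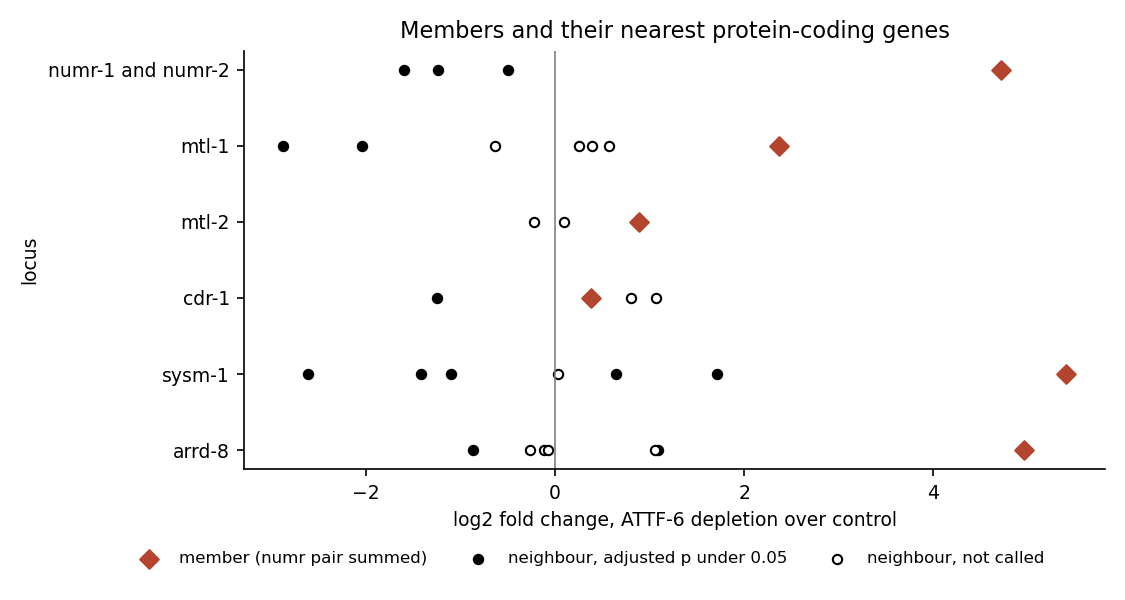
Log2 fold change, ATTF-6 depletion over control, of the members (diamonds, with the numr genes summed) and of the tested genes among the 3 nearest protein-coding genes on each side (circles, filled for an adjusted p under 0.05). Of 26 tested neighbours 3 were higher and 10 were lower. The diamonds stand at 4.72 for the numr genes, 5.40 for sysm-1 and 4.96 for arrd-8. The members were chosen partly for their large changes, so their size is not compared with that of the neighbours.

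The genes with profiles most like that of the summed numr genes were sought over the 4 libraries, by the Euclidean distance between centred log2(CPM + 1) values, as a description. With 2 libraries a group, this measure mostly ranks genes by the size of their difference after 1 CPM is added. The added 1 CPM shrinks the difference of genes with few CPM. The 8 nearest of 16589 genes were oac-6 (distance 0.329), R09E10.2 (0.353), fog-3 (0.368), oac-20 (0.379), catp-3 (0.576), F13A7.11 (0.66), snpc-1.3 (0.694) and gst-24 (0.704). Of these, fog-3 is known as a gene of sperm fate and gst-24 encodes a glutathione transferase. The gene oac-6 had 84.3 and 61.3 CPM in the depletion libraries and 4.73 and 5.86 CPM in the control libraries. Among the members, sysm-1 came at place 10 (distance 0.782). The gene arrd-8, with a log2 fold change of 4.96 but few CPM, came at place 89. The genes mtl-2, mtl-1 and cdr-1 came at places 2115, 2525 and 7084.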

How the data were processed

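Whole-animal mRNA-seq of 2 ATTF-6 depletion and 2 control libraries was used, grouped by the genotype in the labels. The titles say small RNA, but the protocol describes directional mRNA libraries of rRNA-depleted long RNA. The authors trimmed reads, aligned them to WS279 with STAR and deposited expected counts per gene from featureCounts, stranded, with multi-mapped reads divided between alignments and no normalization. Tool versions are not given in the sources used here. The 181 transposon rows were left out. Division makes the 2 numr genes dependent on each other.

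Counts were rounded. The analysis used edgeR 4.0.16 (R 4.3.3): filterByExpr (minimum count 10, minimum total 15), TMM, prior count 0.125, and the two-sided quasi-likelihood F-test, with p-values adjusted by Benjamini-Hochberg over all tested genes at 0.05. The standard error is the fold change divided by the square root of F. Counting intervals are exact binomial at 95%. Positions and symbols are from Ensembl 115 (WBcel235), with shared symbols resolved by RefSeq coordinates. The fit was tested on simulated data with few genes changed, unlike these data, so the scaling was not tested there. P-values measure the spread between these libraries, which may be technical.

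The members and lists were chosen with earlier results of these data known. Beside the members, the text names in each list up to 2 genes with the largest rise and 2 with the largest fall among called genes whose groups did not overlap, genes whose role is needed as background, called neighbours and the 8 most alike profiles. Alternatives were other size factors, DESeq2 1.42.0, other filters, a prior count of 2, scaling to 32 somatic markers, a replicate block, whole-count genes only and each library left out. Sequences and promoter motifs were not analysed here.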

Additional observations from a re-analysis of the deposited data

How the results depend on the processing

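The number of genes called was 10452 as reported. It ran from 8763 with scaling to somatic markers to 10749 with the replicate block, among the alternatives that kept all libraries. Scaling to somatic markers moved the median of all genes by -0.48 on the log2 scale and the share of calls that were higher to 23.4%, beside 49.0% as reported, and this share was 43.5% with RLE size factors and 41.3% with DESeq2, each with a shift of -0.12. With scaling to somatic markers 12.4% of all genes were higher and 40.4% were lower. The higher genes were 9 of 42 in metal handling, 3 of 22 in the arrestin domain family, 1 of 6 p38 components and 4 of 9 p38 targets. Of the p38 components 4 were lower. The p38 components called higher were also 1 with RLE size factors, DESeq2 and no filter. Leaving out 1 library at a time gave 4 to 7 higher arrestin domain genes, 1 to 2 higher and 0 to 2 lower p38 components, and 3 to 5 higher neighbours. The neighbours called higher were 5 with no filter and 5 with the replicate block. The log2 fold change of cdr-1 was -0.10 with scaling to somatic markers and ran from -0.02 to 0.85 with 1 library left out. Over all alternatives the summed numr genes ran from 4.24 to 5.31, arrd-8 from 4.34 to 5.65 and mtl-1 from 1.91 to 2.66, all above 0. The replicate numbers share only a number (correlation of deviations -0.0211), and with the replicate block sysm-1 was 5.50 and mtl-1 was 2.38. The genes mtl-1 and cdr-1 had under 50 counts in every library, and the part of depth in their spread was not tested.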
